A study of Triticum aestivum with 15 samples.

Results

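In flag leaves of 2 winter wheat cultivars, TAM111 and TAM112, 58 loci were expressed in every well-watered library at grain filling (GF) and fell to a small part of that level in every droughted library of the same stage. They were chosen on these values among the loci of the merged transcript catalogue that carry a reference gene name. The lowest FPKM in the 4 GF wet libraries had to be at least 5, and the highest FPKM in the 4 GF dry libraries at most 0.25 of that lowest value. FPKM is the number of fragments scaled to transcript length and to the size of the library. Of 110167 loci with a gene name, 8773 reached the wet minimum outside the first parts of chromosomes 1A, 1B and 1D and 1 further locus, XLOC_054218, which were left out. The 58 loci were 0.661% of these 8773. With the treatments exchanged, the same thresholds gave 187 loci that were higher under drought. The GF dry and GF wet values chose the loci and are given as a description with no test. The libraries of the earlier stage, heading (HD), were not used in the choice.

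Plants were grown in a greenhouse. From jointing, pots of the dry treatment were held at around 50% gravimetric water content and pots of the wet treatment at 90%. Flag leaves of the primary tillers of 4 plants were pooled for each sample, 79 days after transplanting for HD and 100 days for GF. The 15 RNA-seq libraries made 8 groups, each cultivar in both treatments at HD and at GF, with 2 libraries in each group except TAM111 HD wet, which had 1. By the study's methods each replicate had pots of its own, so the p-values measure the spread between such pools in 1 greenhouse experiment. Each locus is the sum of all transcripts in a pooled leaf, in which fewer cells of a type and less RNA per cell cannot be told apart.

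The flag leaf is the uppermost leaf of the wheat stem and a main source of the carbon and nitrogen that reach the grain. Receptor-like kinases at the plasma membrane carry a kinase inside the cell and a sensing domain outside it, and in the wall-associated receptor kinases the outer part is bound to the cell wall. Sulfoquinovosyl transferases make the sulfolipid of the thylakoid membrane, in which the photosynthetic complexes sit. Drought in the weeks of heading and grain filling is known to shorten the working life of the leaf.

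A pair of libraries stood apart from its label and touches the values below. Loci found in 1 cultivar alone were defined by an FPKM of at least 1 in all of its libraries and at most 0.1 in all of the other's, at 1 stage, and were read at the other stage. Of 236 such TAM111 loci from GF, the library TAM111 HD dry 1 held 61.4%, against 85.2% and 91.9% in the other two TAM111 libraries of HD. Of 67 such TAM112 loci, it held 38.8%, against 5.97% and 13.4%. TAM111 GF wet 1 held 50.9% of the 106 such TAM112 loci from HD, against between 18.9% and 21.7% in the other TAM111 libraries of GF. Results are therefore also given without these libraries. The rule applied without TAM111 GF wet 1 chose 68 loci. All 58 had to be among them, since leaving out a library can only loosen the rule.

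The median FPKM over the loci was 15.2 and 12.4 in the TAM111 GF wet libraries and 12.6 and 13.1 in those of TAM112. Under dry at GF it was 0.726 and 0.870 in TAM111 and 0.476 and 0.493 in TAM112. At HD the wet medians were below all 4 GF wet medians, with 9.58 in the only TAM111 library and 7.42 and 9.95 in TAM112. The HD dry libraries lay between the HD wet and GF dry levels, with 2.50 and 1.33 in TAM111 and 1.15 and 2.53 in TAM112. All 4 HD dry medians were below all 3 HD wet medians and above all 4 GF dry medians. The loci were chosen for low GF dry and high GF wet values, which favours the orders of HD against GF. The order of dry and wet within HD played no part in the choice. Over the 8773 loci that reached the wet minimum, the library medians at HD lay between 13.5 and 15.2 FPKM in both treatments.

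**Figure D1:**
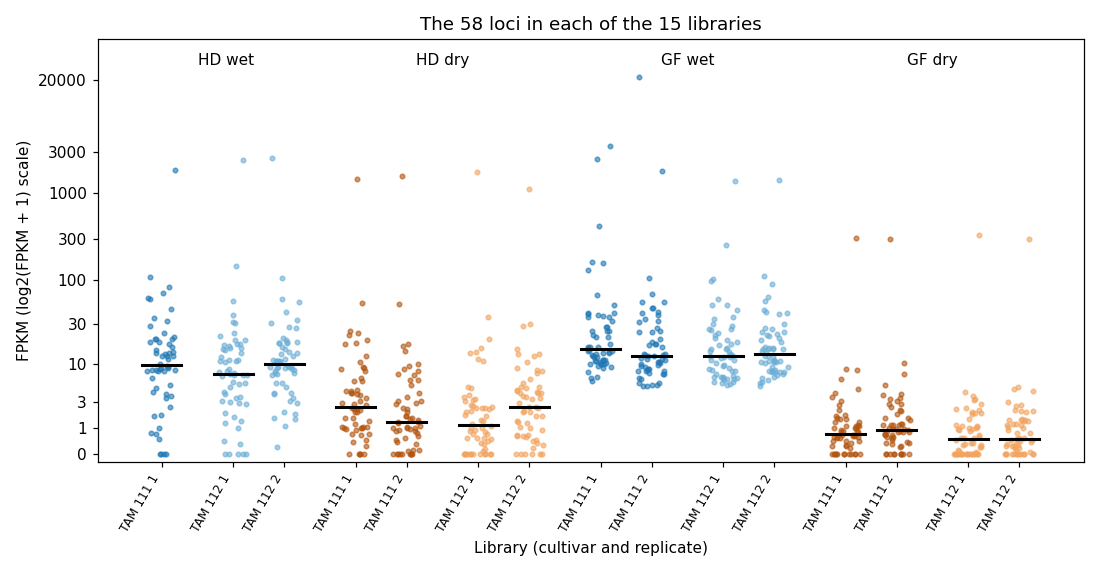
FPKM of the 58 loci in each of the 15 libraries, on a log2(FPKM + 1) axis labelled in FPKM, with 1 point per locus and a bar at the median of each library. The GF wet and GF dry points do not overlap for any locus because the rule required it, and the HD dry medians, between 1.15 and 2.53 FPKM, sit below the HD wet medians of 7.42 to 9.95 FPKM.

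The loci lay on 20 chromosomes, counting the unplaced sequence, with 17 in the A, 18 in the B and 22 in the D subgenome and none on 4D or 5A. They were of ordinary length, with a median of 1458 bp in the longest transcript against 1364 bp in the 8773 loci. Single-exon loci made up 24.1% of them (14 loci) and 5.86% of the 8773. Only 1 pair lay within 1 Mb, XLOC_107692 and XLOC_107693 on the same strand of chromosome 7B, 13551 bp apart. At 10 loci the catalogue joins several gene names, so that their FPKM cannot be given to 1 gene. Fragments were estimated from the deposited confidence bounds of the entry with the largest overlap at each locus. Further entries summed into an FPKM are not counted. The estimates had a median over the loci of 63.9 in the GF wet and 3 in the GF dry libraries. By this estimate, differences among GF dry values rest on few fragments at most loci.

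At HD, where the choice played no part, dry values were lower for most of the 58 loci in both cultivars. All 4 dry libraries lay below all 3 wet libraries at 35 of them, and 0 had the reverse order. Over the 37679 tested loci with a gene name, 5.5% had all dry below all wet and 7.55% all dry above all wet. The full rule was also read on the HD libraries, with the lowest HD wet value at least 5 and the highest HD dry value at most 0.25 of it. It was met by 6 of the 58, XLOC_035115, XLOC_050508, XLOC_074374, XLOC_082723, XLOC_086549 and XLOC_091312. Of the 37679 loci, 11 met it, or 0.0292%. Of the 58, 32 had at least 5 FPKM in all HD wet libraries, and over all 9155 loci with that level the share that met the rule was 0.12%. Without TAM111 HD dry 1 the non-overlapping loci were 38 and those that met the rule remained 6 in number. Leaving out a library cannot lower either count, so this does not test how far they depend on that library.

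Limma on log2(FPKM + 1), fitted to all 15 libraries and adjusted over 49025 loci, could test 55 of the 58. At XLOC_004568, XLOC_055561 and XLOC_086032 an overlapping entry had gone to a different locus in 1 or more libraries, so their values listed at 0 may be a matter of assignment. Over both cultivars, 26 of the 55 were lower under dry at HD with an adjusted p below 0.05 and a change of at least 2-fold, and 0 were higher. The share called lower was 0.657% over all loci tested, and the share called higher 0.381%. The median change was −1.73 on the log2 scale over the 55 loci and 0.04 over all loci tested, and 53 of the 55 changes were negative. The fit takes its spread partly from the GF libraries, whose low dry values chose the loci. Fitted to the 7 HD libraries alone, 7 of the 55 were called, against 0.83% of all loci, and the changes themselves stayed as they were. The 7 called were XLOC_007966, XLOC_050508, XLOC_074374, XLOC_079999, XLOC_086549, XLOC_098635 and XLOC_118961. Every other dry-wet call over both cultivars was lost in that fit. Of the 26 calls, 5 held in every fit that gave a value. Without TAM111 HD dry 1 and TAM111 GF wet 1, 20 were called. Leaving out TAM111 HD dry 2, TAM112 HD dry 1 or TAM112 HD wet 2 gave 11, 13 and 12.

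**Figure D2:**
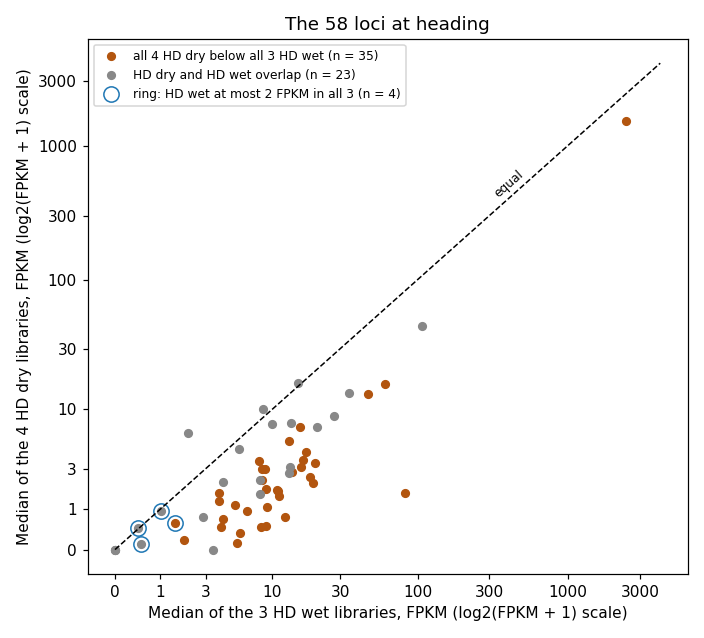
Median FPKM of the 4 HD dry libraries against that of the 3 HD wet libraries for each of the 58 loci, both on log2(FPKM + 1) axes labelled in FPKM, with a dashed line of equal values. The 35 loci whose HD libraries do not overlap lie below the line, and the ringed 4 loci had at most 2 FPKM in every HD wet library.

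Only 14 of the 58 loci had a product name. The names come from the study's tables of loci it had called in chosen categories, so the share of a family over all loci could not be given. Wall-associated receptor kinases gave 3 of the 14, and all 3 were called lower under dry at HD. XLOC_086549, wall-associated receptor kinase 3 (TraesCS6A01G000200; chromosome 6A part 1, 103431 to 110267, 4 exons), had 12.2 and 9.90 FPKM under GF wet in TAM111 and 6.53 and 12.5 in TAM112. Under GF dry it had 0.634 and 1.21 in TAM111 and 0.840 and 0.488 in TAM112. At HD its wet values were 21.3 in TAM111 and 11.2 and 10.8 in TAM112, and its dry values 1.62, 1.75, 1.01 and 1.38. No dry value reached 2 FPKM at either stage, and the rule that chose the locus at GF was also met at HD. The HD change was −2.75 ± 0.24 (SE, limma, adjusted p = 0.00167), and it was called in each cultivar by itself, with −3.05 ± 0.37 in TAM111 and −2.46 ± 0.30 in TAM112.

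XLOC_098635, also named wall-associated receptor kinase 3 (TraesCS6D01G032600; chromosome 6D part 1, 13723957 to 13735758), was expressed at a lower level. It had 7.90 and 8.19 FPKM under GF wet in TAM111 and 5.24 and 6.44 in TAM112, and between 0.0471 and 0.324 in the 4 GF dry libraries. The HD wet values were 3.61 in TAM111 and 1.65 and 1.88 in TAM112, and the dry values lay between 0.0749 and 0.371. The rule required the groups to be apart at GF, and they were also apart at HD, with a change of −1.57 ± 0.17 (SE, limma, adjusted p = 0.00491). The product tables give it the same name as XLOC_086549, and reads shared between similar kinases could be split between such loci.

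XLOC_074394, wall-associated receptor kinase 2, spans 3 gene names (TraesCS5B01G063500, TraesCS5B01G063600 and TraesCS5B01G063700) over 71343961 to 71640767 of chromosome 5B part 1. This locus is shown with the primers by which the study measured it in RT-qPCR, as the oligonucleotides that stand for it in a second assay. They are written from 5′ to 3′ with no capitals, since no base is singled out.

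XLOC_074394 forward: ggctgctgccacgtagac
XLOC_074394 reverse: gtggtgttgaaggtgtaatg

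Its FPKM was 15.9 and 6.37 under GF wet in TAM111 and 13.3 and 10.2 in TAM112, and 0.824, 1.16, 0.0588 and 0.472 under GF dry. In the HD libraries it had 11.3, 7.16 and 10.9 under wet and 2.04, 0.869, 2.36 and 1.37 under dry. The HD groups were apart, with a change of −2.09 ± 0.34 (SE, limma, adjusted p = 0.0243). In the fit of the HD libraries alone, with a pseudocount of 0.1, and with most single HD libraries left out, the call was lost.

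The study's product tables hold 27 wall-associated receptor kinase loci, of which 26 could be tested. At HD 12 of the 26 were called lower and 0 higher, with a median change of −1.58 on the log2 scale. Without the 3 loci above, 9 of 23 were called lower, with a median of −1.57. Those tables list loci that the study had called on these same samples, so the counts are not independent evidence of a direction.

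Other receptor-like proteins gave single loci. XLOC_042878, a receptor kinase-like protein named after rice Xa21, which recognises a bacterial pathogen (TraesCS3B01G024500; chromosome 3B part 1, 10562127 to 10573492), had 37.0 and 17.7 FPKM under GF wet in TAM111 and 15.4 and 18.5 in TAM112. Its 4 GF dry values lay between 0.578 and 2.80. At HD it kept its wet level, with 20.1 in TAM111 and 21.6 and 18.7 in TAM112, and had 4.41 and 2.37 under dry in TAM111 and 2.30 and 5.53 in TAM112. The change of −2.25 ± 0.36 (SE, limma, adjusted p = 0.0218) was −2.31 ± 0.55 in TAM111 and −2.19 ± 0.45 in TAM112, with an interaction of 0.12 ± 0.71 (SE). Its call over both cultivars was lost in the fit of the HD libraries alone and with most single HD libraries left out. Of 73 tested receptor-like kinases of other kinds in the tables, 15 were called lower at HD and 0 higher, with a median change of −0.89. Without XLOC_042878 it was 14 of 72. These loci, too, had been called by the study on the same samples, so the counts are not independent evidence of a direction.

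XLOC_020076, a disease resistance RPP13-like protein 3 (TraesCS2A01G575200; chromosome 2A part 2, 307577386 to 307588328, 10 exons), is of the class of intracellular immune receptors. Its level at HD differed between the cultivars. It had 1.83 FPKM under HD wet and 0.912 and 0.461 under HD dry in TAM111, against 5.59 and 8.95 under wet and 10.9 and 8.20 under dry in TAM112. All 4 TAM112 values at HD were above all 3 TAM111 values. The entry with the largest overlap held an estimated 9 fragments in the median HD wet library and 2.995 in the median HD dry library. By this estimate, which leaves out any further entries summed into the FPKM, the HD values of this locus rest on few fragments. The difference between the cultivars was 2.08 ± 0.33 on the log2 scale (SE, limma, adjusted p = 0.0137), and the dry-wet change over both cultivars was −0.20 ± 0.33 (SE, adjusted p = 0.887). Under GF wet both cultivars expressed it, with 12.3 and 5.12 in TAM111 and 6.68 and 10.8 in TAM112, and under GF dry it was at most 0.865. Without TAM111 HD dry 1 and TAM111 GF wet 1 the cultivar difference was 2.18. The call was lost in 2 of the 13 alternatives tried, with a pseudocount of 0.1 and without TAM112 HD dry 1, and the adjusted p ranged from 0.0102 to 0.0664 over the alternatives (limma). Of 17 tested disease resistance loci in the product tables, 4 were called lower under dry at HD and 0 higher, with a median change of −0.69. Without XLOC_020076 it was 4 of 16. The study had called the loci of its tables on these samples, so this is not independent evidence of a direction.

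Enzymes of sulfur metabolism gave 3 of the 14 loci with a product name. XLOC_035620, a sulfoquinovosyl transferase (TraesCS3A01G055500; chromosome 3A part 1, 32145987 to 32149598, 10 exons), had 27.8 and 47.6 FPKM under GF wet in TAM111 and 30.4 and 24.1 in TAM112. It had 3.54 and 3.05 under GF dry in TAM111 and 2.24 and 1.20 in TAM112. At HD its level was already low under wet, with 9.90, 10.9 and 7.40, and the dry values of 8.58, 7.23, 3.82 and 7.96 overlapped them. The HD change of −0.45 ± 0.30 (SE, limma) did not pass the test, with an adjusted p of 0.639.

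XLOC_041609, the second sulfoquinovosyl transferase (TraesCS3B01G067900; chromosome 3B part 1, 40235625 to 40239494, 11 exons), had between 21.9 and 27.3 FPKM under GF wet and between 2.69 and 5.30 under GF dry. Its HD values were 13.8, 15.8 and 17.8 under wet and 9.07, 5.31, 3.48 and 10.4 under dry, which did not overlap. The change of −1.10 ± 0.34 (SE, limma) had an adjusted p of 0.206. A further locus of that name, XLOC_048226 (TraesCS3D01G055400), fell outside the rule, with 8.40 to 14.2 FPKM under GF wet and 0.437 to 2.60 under GF dry. It had 1.83 to 2.52 under HD wet and 0.602 to 1.68 under HD dry. The product tables thus place the name on 3A, 3B and 3D, and at each of these loci the HD wet libraries were below the GF wet libraries. Near-identical copies on these chromosomes could exchange reads.

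XLOC_103853, thiosulfate sulfur transferase 18 (TraesCS7A01G215800; chromosome 7A part 1, 182122282 to 182123748, a single exon), is of a family that moves sulfur from thiosulfate to an acceptor. It had 10.1 and 10.6 FPKM under GF wet in TAM111 and 8.38 and 10.9 in TAM112, and 0.854, 1.501, 0.946 and 1.08 under GF dry. Its HD values were 12.4, 7.70 and 8.05 under wet and 3.05, 4.08, 2.62 and 4.25 under dry. The replicates were close at both stages, and the HD change was −1.29 ± 0.20 (SE, limma, adjusted p = 0.0218). Of the 7 loci in the list of sulfolipid, thiosulfate and cyanoalanine enzymes, 2 were called lower at HD and 0 higher, and the second was XLOC_081559, a thiosulfate sulfurtransferase that overlapped between the GF treatments (113 to 174 FPKM under wet, 39.5 to 125 under dry). This list, too, holds loci that the study had called on these samples.

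Transport and detoxification were represented by single loci. XLOC_089029, ammonium transporter 3 member 2 (TraesCS6A01G228900; chromosome 6A part 1, 431219695 to 431224355), which moves ammonium across membranes, had 39.2 and 5.52 FPKM under GF wet in TAM111 and 6.97 and 15.9 in TAM112. Its GF dry values were 0.559, 0.813, 0.202 and 0.518. At HD the wet values were close together at 13.3, 11.1 and 13.7, and the dry values of 5.92, 3.08, 4.90 and 7.59 were all lower. The change of −1.17 ± 0.57 (SE, limma) did not pass the test, with an adjusted p of 0.484. The spread of its GF wet replicates was the wider one, with the highest value in the library TAM111 GF wet 1. Of 16 tested transporters of nitrogen, sulfate, phosphate and amino acids in the product tables, 2 were called lower at HD and 0 higher, with a median change of −1.04. Without XLOC_089029 it was 2 of 15. Being called by the study on these samples, such loci give no independent evidence of a direction.

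XLOC_046123, glutathione S-transferase GSTU6 (TraesCS3B01G287200; chromosome 3B part 2, 11287706 to 11288819), belongs to enzymes that attach glutathione to reactive compounds. It had 40.7 and 47.2 FPKM under GF wet in TAM111 and 44.3 and 42.5 in TAM112, a narrow range. Under GF dry it had 8.25 and 3.93 in TAM111 and 3.25 and 4.55 in TAM112. The HD wet values were 32.8 in TAM111 and 12.04 and 20.8 in TAM112, and 12.4 and 9.45 under dry in TAM111 and 3.07 and 4.95 in TAM112. Both treatments were lower in TAM112, so that the pooled dry and wet values overlapped while those within each cultivar did not. The dry-wet change was −1.65 ± 0.29 (SE, limma, adjusted p = 0.0332). That call was lost in the fit of the HD libraries alone and in most fits with a single HD library left out. The cultivar difference of −1.13 ± 0.29 (SE) had an adjusted p of 0.118.

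XLOC_097680 (TraesCS6D01G206000, chromosome 6D part 1, 291794170 to 291798197) is of the Mpv17/PMP22 family of membrane proteins. It had the highest fragment estimate of the 58 loci, 895 in the median GF wet library. It had 50.5 and 38.7 FPKM under GF wet in TAM111 and 51.0 and 44.3 in TAM112. Under GF dry it had 6.36 and 7.34 in TAM111 and 2.05 and 4.97 in TAM112. At HD its wet level was close to that at GF, 46.1 in TAM111 and 39.2 and 54.6 in TAM112. Its HD dry values of 17.5, 9.95, 13.9 and 12.6 were all above its GF dry values. The HD change was −1.73 ± 0.29 (SE, limma, adjusted p = 0.0264), with −1.73 in each cultivar.

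The other named products, 3 in number, are of genes that plants carry in the chloroplast, here on nuclear chromosomes, so that reads of the chloroplast copies could not be told apart from theirs. XLOC_042244, a cytochrome c heme attachment protein on 3B, had 11.2, 8.06, 17.7 and 9.16 FPKM under GF wet and was listed at 0 in 3 of the 4 GF dry libraries, with 1.45 in TAM112 GF dry 2. XLOC_045416, an Imp biosynthesis protein on 3B, had 14.5, 11.7, 14.3 and 7.97 under GF wet and was listed at 0 in all GF dry libraries. XLOC_054723, ribosomal protein L2 on 4A, had 39.8, 11.1, 97.2 and 15.2 and was listed at 0 in the GF dry libraries. The latter pair had an estimated 4 and 1.38 fragments in the median GF wet library. None of these loci was called at HD. There XLOC_042244 had 8.33, 1.38 and 9.34 under wet and 1.02, 0, 0.293 and 0.644 under dry, which were apart. Its change was −2.24 ± 0.54 (SE, limma, adjusted p = 0.108). XLOC_045416 had 3.43, 0 and 11.1 under HD wet and 3.80, 0, 0 and 0 under HD dry. XLOC_054723 had 0, 0 and 28.4 under HD wet and 0, 0, 0 and 13.1 under HD dry. XLOC_054723 no longer met the rule when entries under 200 bp were left out.

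**Figure D3:**
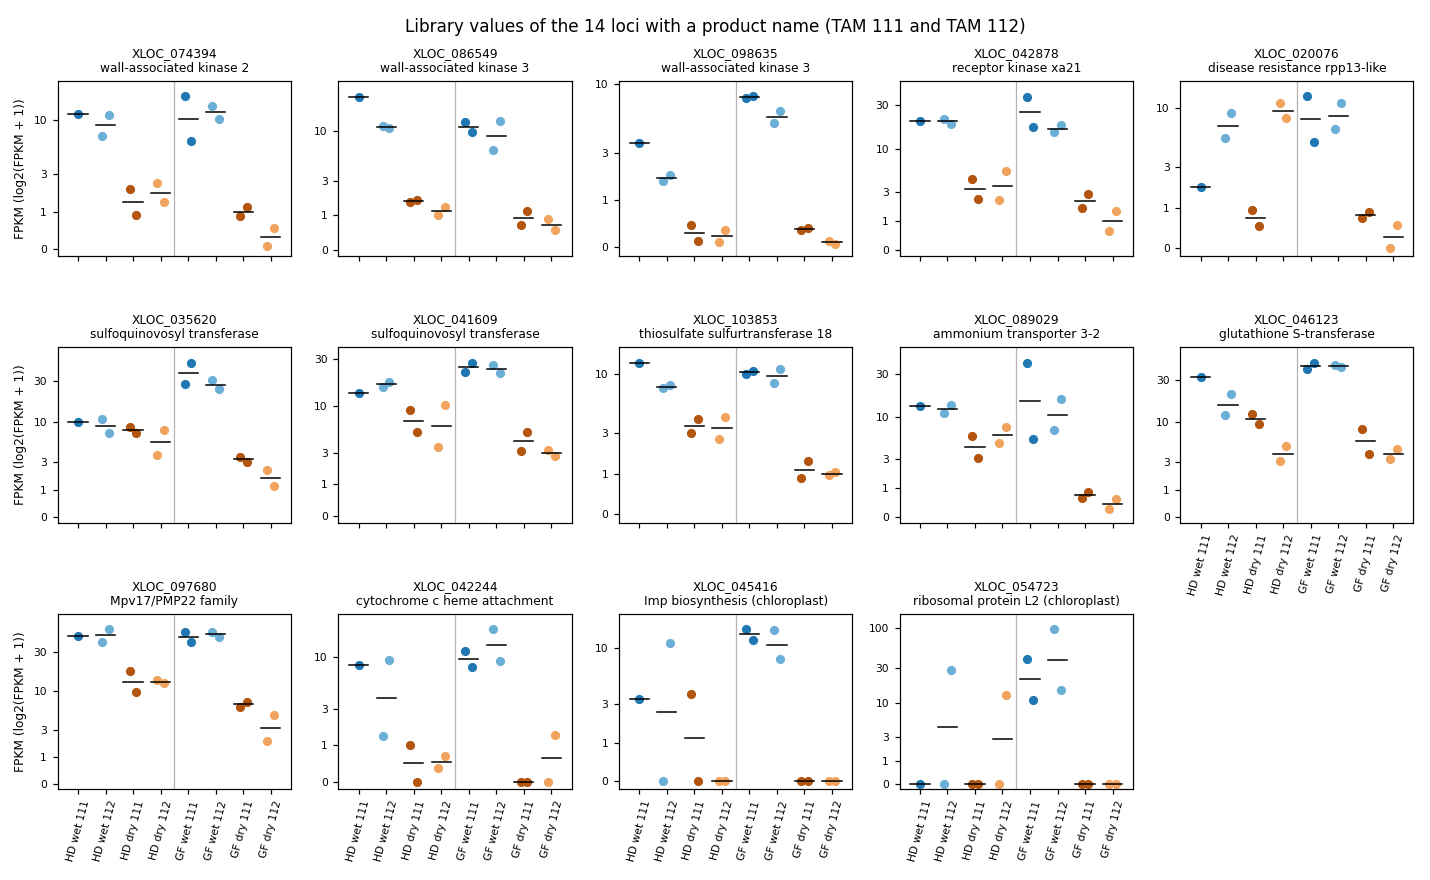
FPKM of the 14 loci with a product name, 1 panel each, on log2(FPKM + 1) axes labelled in FPKM, with blue points for wet and orange points for dry libraries in TAM111 (darker) and TAM112 (lighter), and a bar at the mean of each group on that scale. The 3 wall-associated receptor kinases are low under dry at GF, where the rule required it, and also at HD. XLOC_035620 has HD wet values of 7.40 to 10.9 FPKM that overlap its HD dry values, and XLOC_020076 is high at HD in TAM112 alone.

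Among the loci without a product name, XLOC_091312 had the largest change at HD of those called. It is a single-exon locus of 453 bp (TraesCS6B01G037800; chromosome 6B part 1, 22426223 to 22426675) with 157 and 106 FPKM under GF wet in TAM111 and 257 and 89.9 in TAM112. Under GF dry it had 2.26, 1.14, 2.36 and 1.22. The HD wet values were 82.3 in TAM111 and 24.0 and 106 in TAM112, and 3.40, 1.77, 1.48 and 1.03 under dry. The HD change was −4.55 ± 0.54 (SE, limma, adjusted p = 0.00725), and both stages kept a level of a few FPKM under dry.

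XLOC_074374 (TraesCS5B01G059200; chromosome 5B part 1, 65239308 to 65244035) was highest in the only TAM111 HD wet library. It had 61.9 FPKM there and 14.9 and 18.6 in TAM112 HD wet, against 2.83, 3.08, 0.694 and 2.09 under HD dry. At GF it had 21.5, 41.1, 23.5 and 15.5 under wet and 2.63, 3.47, 1.88 and 2.98 under dry. The HD change was −3.47 ± 0.31 (SE, limma, adjusted p = 0.00200), with −3.99 in TAM111 and −2.94 in TAM112, and the difference between the cultivars did not pass the test.

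XLOC_082723 (TraesCS5D01G068800; chromosome 5D part 1, 65759218 to 65763990) had between 19.4 and 26.5 FPKM under GF wet and between 2.10 and 4.66 under GF dry. At HD it had 29.1 under wet in TAM111 and 10.6 and 10.8 in TAM112, and 2.26, 1.32, 0.532 and 2.41 under dry, lower than under GF dry in TAM111. The HD change was −2.91 ± 0.32 (SE, limma, adjusted p = 0.00558).

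XLOC_035115, which joins TraesCS2D01G567300 and TraesCS2D01G567400 on chromosome 2D, also met the rule at HD but did not pass the test. It had 38.1, 5.64, 5.76 and 26.6 FPKM under GF wet and 0, 0.219, 0.269 and 0 under GF dry. Its HD values were 12.3, 17.3 and 10.7 under wet and 1.44, 0.115, 0.856 and 0.637 under dry. The HD groups were apart, while the wet replicates at GF were not close, and the HD change was −3.04 ± 0.66 (SE, limma, adjusted p = 0.0744).

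XLOC_050508 (TraesCS3D01G131500; chromosome 3D part 1, 91659647 to 91660357, 3 exons) was listed at 0 in all 4 GF dry libraries, with 25.4 and 24.8 FPKM under GF wet in TAM111 and 15.8 and 24.5 in TAM112. At HD it had 13.8 under wet in TAM111 and 5.70 and 5.50 in TAM112. Under HD dry it had 0.667 and 1.28 in TAM111 and was listed at 0 in both TAM112 libraries. It had the smallest adjusted p of the 55 loci at HD, 0.000488, with a change of −2.82 ± 0.19 (SE, limma). It was also lower in TAM112 than in TAM111 at HD, by −1.07 ± 0.19 (SE, adjusted p = 0.0296), and that call was lost in 6 of the 13 alternatives tried, the HD libraries alone and 5 of the fits with 1 HD library left out.

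The neighbours XLOC_107692 and XLOC_107693 on 7B were both called lower under dry at HD. XLOC_107692 (TraesCS7B01G084700; 96585457 to 96586121 of part 1) was listed at 0 in all GF dry libraries and had 9.79, 7.52, 13.8 and 13.7 FPKM under GF wet. It had 8.72, 15.8 and 9.03 under HD wet and 0.985, 0, 0 and 2.52 under HD dry. XLOC_107693 (TraesCS7B01G084800; 96599673 to 96600694) had 10.9, 11.5, 15.4 and 12.5 under GF wet and at most 0.965 under GF dry, with 6.48, 4.84 and 7.18 under HD wet and 1.05, 0.827, 0.543 and 2.06 under HD dry. Their HD changes were −2.79 ± 0.43 (SE, limma, adjusted p = 0.0193) and −1.81 ± 0.27 (SE, limma, adjusted p = 0.0174).

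Not every locus was low in dry leaves at HD. XLOC_049156 (TraesCS3D01G222300; chromosome 3D part 1, 303397665 to 303398003, transcript of 210 bp), had 2473 and 1787 FPKM under GF wet in TAM111 and 1375 and 1429 in TAM112. It kept 305, 300.4, 331 and 297 under GF dry. At HD it had 1868, 2423 and 2576 under wet and 1471, 1586, 1760 and 1119 under dry, a change of −0.56 ± 0.19 (SE, limma, adjusted p = 0.255). XLOC_098563 (TraesCS6D01G018400), with 6.70 to 15.8 under GF wet and 0.253 to 0.584 under GF dry, had 9.25, 32.4 and 15.2 under HD wet and 19.3, 6.12, 13.4 and 30.5 under HD dry. The dry and wet values of this locus overlapped at HD, with a change of 0.05 ± 0.48 (SE, adjusted p = 1). In all, 7 of the 58 loci had at least 5 FPKM in all 4 HD dry libraries.

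A further 4 loci were low at HD under both treatments, with at most 2 FPKM in every HD wet library. XLOC_095364 (TraesCS6B01G267800; 12 exons) had 14.2, 17.2, 11.7 and 8.36 FPKM under GF wet and at most 0.306 under GF dry, against 1.77, 1.28 and 1.502 under HD wet and 0.357 to 0.972 under HD dry. XLOC_089284 (TraesCS6A01G257300; 11 exons) had 5.09 to 12.8 under GF wet and 0.239 to 0.777 under GF dry, against 0.692 to 1.63 under HD wet and 0.561 to 1.33 under HD dry. XLOC_029685 (TraesCS2D01G177100) had 6.18 to 10.96 under GF wet and 0.665 to 1.25 under GF dry, with at most 0.783 in every HD library. These loci were thus expressed at several FPKM only in wet leaves at GF among the 8 groups. The fourth, XLOC_107148, had 3496 and 21822 FPKM under GF wet in TAM111 and 36.6 and 5.64 in TAM112, of which 99.8% came from assembled entries under 200 bp, and it left the list without those entries.

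Set beside GF, the HD wet level was within 2-fold of the GF wet level for 39 of the 58 loci and more than 2-fold below it for 19, by the medians over libraries, and more than 2-fold above it for 0. The HD dry median exceeded the highest GF dry value at 40 loci, and all 4 HD dry libraries did so at 16. The dry-wet difference of medians was larger at GF than at HD for all 58. The choice of loci on low GF dry and high GF wet values favours all of these orders between the stages. The product tables hold 7 light-harvesting and Rubisco-related loci of green leaf tissue, all called by the study on these same samples. Their GF median was below the HD median for 3 and above it for 4, under wet and under dry alike in number. Those for chlorophyll a-b binding proteins of LHCII type 1 were detected in every library and had lower medians at GF. XLOC_073423 had 12.05 to 32.9 FPKM under HD wet and 33.2 to 51.4 under HD dry, and 1.63 to 21.9 under GF wet and 0.67 to 4.23 under GF dry. XLOC_079699 had 27.3 to 99.7 under HD wet, 56.1 to 137 under HD dry, 0.54 to 53.7 under GF wet and 1.59 to 11.7 under GF dry. XLOC_025020, a photosystem II polypeptide, went the other way under dry, with 8.32 to 23.8 under HD dry and 84.4 to 188 under GF dry, and had 3.89 to 6.88 under HD wet and 1.60 to 9.11 under GF wet. Higher medians at GF under both treatments were found at XLOC_055794, XLOC_060058 and XLOC_064620, and under wet alone at XLOC_027139. The part of these shifts in the values of the 58 loci was not tested.

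Read in each cultivar by itself, the dry-wet change at HD was negative for 50 of the 55 tested loci in TAM111 and for 52 in TAM112, with medians of −1.80 and −1.67. All dry libraries lay below all wet libraries for 47 of the 58 in TAM111, where 33.4% of the 37679 loci did, and for 43 in TAM112, where 16.7% did. In TAM111, 7 loci were called lower by limma, against 0.43% of all loci, and in TAM112, 8 loci, against 0.137%. None was called higher in either, against 0.0592% and 0.306% of all loci. The 5 loci called in both cultivars were XLOC_050508, XLOC_074374, XLOC_079999, XLOC_082723 and XLOC_086549. These counts moved with the fit. In the HD libraries alone 3 loci were called in TAM111, 2 in TAM112 and 2 in both. Without TAM112 HD dry 1, 1 locus was called in TAM112, XLOC_050508, which was then the only one called in both, and without TAM112 HD wet 1 or TAM112 HD wet 2 the TAM112 count was 5 or 4. A cultivar difference in this change (the interaction) was called at 0 of the 55 loci by limma, and at an unadjusted p below 0.05 the change was more negative in TAM112 at 3 and less negative at 2. Over all loci, 1.65% were more negative and 4% less negative at that unadjusted threshold, and 0.0306% and 0.122% were called after adjustment.

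**Figure D4:**
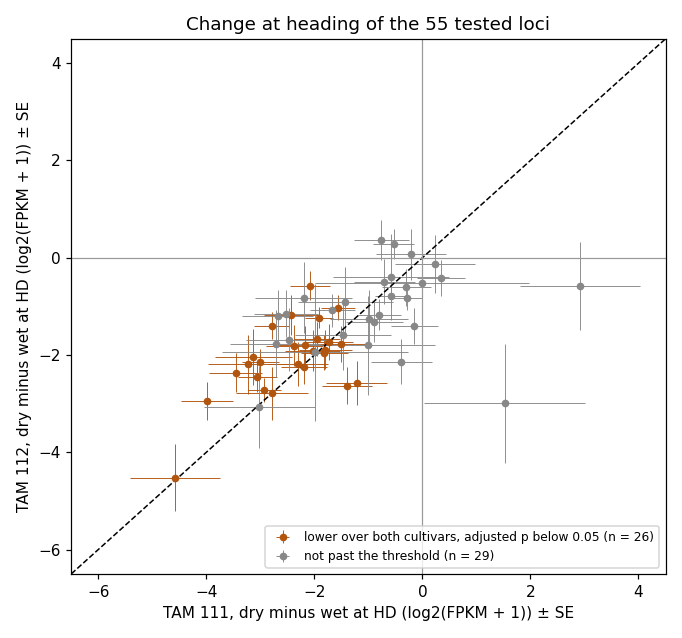
Change at HD under dry, as log2(FPKM + 1) of dry minus wet with SE bars from limma, in TAM112 against TAM111 for the 55 tested loci, with a dashed line of equal change. Of the 55 loci, 50 lie left of 0 in TAM111 and 52 below 0 in TAM112, and the 26 loci called over both cultivars are all negative in both.

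Averaged over the treatments at HD, 2 of the 55 loci were called lower in TAM112, against 1.1% of all loci, and 1 was called higher, against 0.341%. The latter was XLOC_020076 above. XLOC_106156 (TraesCS7A01G366700; chromosome 7A part 2, 90173161 to 90178243) was the lower locus with the largest difference, −1.64 ± 0.21 (SE, limma, adjusted p = 0.00526). It had 16.2 FPKM under HD wet and 2.05 and 1.01 under HD dry in TAM111, and 2.01 and 2.83 under HD wet and 0.147 and 0.453 under HD dry in TAM112. The same order held at GF, with 14.7 and 13.03 under wet in TAM111 against 6.35 and 7.41 in TAM112, and 1.35 and 0.956 under dry against 0 and 0.180. Its dry-wet change at HD was −2.79 ± 0.33 in TAM111 (SE, limma, adjusted p = 0.00862) and −1.39 ± 0.27 in TAM112 (SE, limma, adjusted p = 0.0767), and the interaction did not pass the test (adjusted p = 0.561). The cultivar call of this locus was lost in the fit of the HD libraries alone, with an adjusted p of 0.0950 (limma), and held in the other 12 alternatives. Without TAM112 HD dry 1 the 3 calls between the cultivars became 1.

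Under GF dry, both TAM112 libraries lay below both TAM111 libraries at 18 of the 58 loci and above them at 5. Over the 8773 loci with a wet minimum of 5, the shares were 24.4% and 18.2%. Under GF wet, 13 loci were lower in TAM112 and 5 higher, with 16.3% and 13.4% over the 8773. Under HD dry the numbers were 15 and 6, with 17.3% and 20.6%. Under HD wet, with 1 TAM111 library, they were 23 and 12, with 34.8% and 32.2%. The highest of the 4 GF dry values was that of TAM111 GF dry 2 at 25 loci, that of TAM111 GF dry 1 at 11 and that of a TAM112 library at 7 and 8.

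The 5 loci with the highest GF wet medians were XLOC_049156, XLOC_107148, XLOC_091312, XLOC_004169 and XLOC_118961. XLOC_004169, which joins 4 gene names on 1A, had 163, 68.3, 102 and 111.7 FPKM under GF wet and 0.673, 1.19, 3.64 and 1.41 under GF dry. At HD it had 107, 147 and 42.2 under wet and 53.7, 52.9, 36.6 and 29.1 under dry, so that the HD dry libraries lay far above the GF dry ones and overlapped the HD wet ones. XLOC_118961 (TraesCS7D01G540300; chromosome 7D part 2, 176625210 to 176641098, 7 exons) had 129, 55.6, 51.5 and 62.8 under GF wet and 8.51, 10.1, 2.79 and 2.61 under GF dry. Its HD values of 70.4, 56.6 and 60.3 under wet and 22.6, 16.4, 15.6 and 13.2 under dry were apart, with a change of −1.88 ± 0.28 (SE, limma, adjusted p = 0.0161).

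All GF dry libraries were listed at 0 for 7 loci and below 1 FPKM for 28. The 5 with the highest wet minimum among those at 0 were XLOC_004568, XLOC_050508, XLOC_054723, XLOC_098902 and XLOC_045416. XLOC_004568 (TraesCS1A01G394400), 1 of the loci not tested, had 28.1, 32.9, 35.1 and 41.3 FPKM under GF wet, and at HD 35.8 under wet and 25.4 and 17.6 under dry in TAM111 against 0 and 27.3 under wet and 0 and 0 under dry in TAM112. XLOC_098902 (TraesCS6D01G079700) had 66.6, 32.0, 59.4 and 8.11 under GF wet, all from entries under 200 bp and an estimated 5.50 fragments in the median library.

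Just inside the threshold of 0.25 for the ratio of the highest GF dry to the lowest GF wet value were XLOC_041609 (0.242), XLOC_049156 (0.241) and XLOC_082723 (0.240). Just outside were XLOC_043608, a Ble2 protein (1.90 FPKM against 7.57, ratio 0.252), XLOC_059364, an alpha-terpineol synthase (2.13 against 8.05, ratio 0.265), and XLOC_039675, the sugar transporter SWEET2b (11.2 against 42.1, ratio 0.266).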

How the data were processed

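The authors trimmed reads with Trimmomatic 0.38, aligned them with TopHat2 to IWGSC RefSeq v1.0 and quantified each library with Cufflinks. They deposited FPKM per gene, with confidence bounds, and a merged catalogue of loci. The columns are per library and were not scaled further. Entries were assigned to catalogue loci by overlap (bedtools 2.31.1) without strand and summed, and 1895 loci with an entry assigned elsewhere were not tested. Loci that reached 1 FPKM in 2 or more libraries were fitted with limma 3.58.1 (R 4.3.3) on log2(FPKM + 1), means of 8 groups, 15 libraries, a mean-variance trend and Benjamini-Hochberg adjustment. Calls needed an adjusted p below 0.05 and, except for the interaction, an absolute log2 change of at least 1. Fold changes on this scale understate those of low loci. The dry-wet comparisons of the fit were run on simulated data, with changes set only at loci of higher mean level and equal in both cultivars. That run does not show how the fit does at loci of low mean level. Fragments were estimated from the upper bound of the entry with the largest overlap, read as 2 square roots of the fragment number. The estimate thus leaves out the other entries where a locus sums several. The number of reads per library is not given by these files.

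The members and lists were chosen with earlier results of these data known. Product names come from the study's tables by locus number, and 0 of 110788 gene names matched the reference gene table at hand. Named loci were those with a product, the 5 highest under GF wet, the 5 with the smallest ratio (ties by level), the 5 with the largest called change at HD, those called between cultivars and the 3 on each side of the threshold. XLOC_098563, XLOC_035115, XLOC_025020, XLOC_079999, XLOC_107693 and the loci low at HD except XLOC_107148 were named after their values were seen. Also named outside these rules were XLOC_007966, XLOC_015162, XLOC_055561 and XLOC_086032. The same holds, apart from those at the threshold, for the other product-table loci that are not members. Replicate numbers did not pair the libraries, as the closing section reports.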

Additional observations from a re-analysis of the deposited data

How the results depend on the processing

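Of the 26 loci called lower at HD over both cultivars, 5 (XLOC_050508, XLOC_074374, XLOC_079999, XLOC_086549 and XLOC_098635) were called in every fit that gave a value. The number called was 17 with a pseudocount of 0.1, 7 in the HD libraries alone and between 11 and 22 when 1 HD library was left out, with 11 without TAM111 HD dry 2, 13 without TAM112 HD dry 1 and 12 without TAM112 HD wet 2. In TAM111 (7 called) it was 3 with that pseudocount, 11 with no filter, 3 in the HD libraries alone and 5 to 8 with 1 library left out. In TAM112 (8 called) it was 5, 7, 2 and 1 to 10, with 1 without TAM112 HD dry 1, and 5 without TAM111 HD dry 1 and TAM111 GF wet 1, an alternative chosen after seeing the data. Without TAM111 HD wet 1, contrasts that need it gave no value. Between the cultivars (3 called) it was 1 in the HD libraries alone and 1 to 3 with 1 left out, and the interaction stayed at 0 throughout. Some of these fits held fewer libraries, and the cause of these changes was not tested.

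The rule gave 176 loci at a ratio of 0.5, 21 at 0.125, 25 with a wet minimum of 10, 149 with 1, 63 to 79 with 1 GF library left out, and 55 without entries under 200 bp (added after seeing the data). At HD, 6 to 9 loci met the rule and 35 to 41 were apart with 1 library left out. Leaving out a library cannot lower these counts or that of the rule at GF. The HD change of XLOC_054723 ranged from −1.48 to 0.95 with 1 library left out, positive without TAM112 HD dry 1 (0.69) and without TAM112 HD wet 2. That of XLOC_098902 ranged from −1.498 to 0.025, positive without TAM111 HD dry 1, alone or with TAM111 GF wet 1 (0.025). Over all fits, the changes of XLOC_015162 (−0.38 to 0.25), XLOC_029685 (−0.54 to 0.01), XLOC_089284 (−0.13 to 0.06) and XLOC_098563 (−0.33 to 0.43) also crossed 0. The change was negative in every fit that gave a value at 48 loci. Correlations of replicate deviations between groups were −0.04 to 0.09, so the numbers do not pair the libraries, and with the replicate block 18 loci were called over both cultivars. Low fragment numbers under GF dry, shared reads between similar loci and 1 library for TAM111 HD wet limit these values.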
